A study of Mus musculus with 4 samples.

Results

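The 10 genes described here are the EGR family (Egr1, Egr2, Egr3 and Egr4), the NR4A family (Nr4a1, Nr4a2 and Nr4a3), the NAB corepressors Nab1 and Nab2, and Srf. They were picked by symbol, as a named set out of 41288 genes in the table, and all 10 were found. Messenger RNA was measured by RNA sequencing in MC3T3-E1 cells, a mouse pre-osteoblastic line derived from skull that can mature into osteoblasts. The 4 groups were cells that received PC-3 conditioned medium together with tensile strain, cells that received the conditioned medium alone, cells strained in ordinary medium, and an untreated control. PC-3 is a human prostate cancer line. Per the labels, straining took 1 h per day, at 0.5 Hz and 2500 microstrain; the number of days, the time from last straining to harvest and the batches are not given. Each group was 1 library, so batch effects and treatment effects cannot be told apart, and medium conditioned by another cell was not among the groups.

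The table names its columns only LT, T, L and O. LT was read as both treatments, O as control, L as loading and T as conditioned medium, the last by elimination. Were T to mean tensile, strain and conditioned medium would swap wherever a single treatment is named. That swap would not change both treatments against control, or both treatments against the product of the single effects. The set was chosen with the ratios of these libraries already known, so its values are a description and no test was run. Levels are the deposited RPKM (read counts divided by gene model length and by the library total). Ratios are ratios of count shares, and bracketed 95% intervals cover counting error and no variation between cultures. Fewer cells that make a transcript and less transcript per cell cannot be told apart in such bulk RNA. Library totals lay between 10007546 and 10997085 counts. Of 10 osteoblast lineage markers 7 had at least 1 RPKM in every library, among them Runx2 at 12.3 to 16.3 RPKM and Col1a1 at 460 to 587 RPKM; Alpl, Bglap and Ibsp stayed under 1 RPKM. Other markers of that list differed more between libraries. Dmp1 had 5.29 RPKM with both treatments, 5.30 with conditioned medium, 41.2 with strain and 10.6 in the control. Spp1 had 3412, 3455, 2338 and 1223 RPKM in that order of libraries, and Postn 2170, 2095, 3711 and 4735 RPKM. Whether these differences bear on the genes described here was not tested. All 15 markers of blood, endothelial, skeletal muscle and epithelial cells stayed under 1 RPKM in every library, and Ptprc, Myod1 and Epcam had 0 counts.

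Immediate early genes are transcribed within minutes of a stimulus, without new protein synthesis, and most of their transcripts are short-lived. Serum, growth factors and stretch act on many of them through ERK kinases and the serum response factor SRF, which binds CArG boxes together with ETS-family cofactors, and hormones such as parathyroid hormone act on NR4A genes through cAMP and CREB, which binds CRE sites. EGR proteins are zinc finger transcription factors of GC-rich DNA; NAB1 and NAB2 bind EGR1, EGR2 and EGR3 and repress their activity, and NAB2 is itself induced by EGR proteins. The NR4A proteins NUR77, NURR1 and NOR1 are orphan nuclear receptors whose activity follows mainly from how much of them is made.

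Promoter windows of 8 of the 10 genes were found in the RefSeq promoter table (GRCm38.p6), 12 windows in all, each of 300 bases from 250 before an annotated start to 50 after it. Egr1 and Egr3 had no window there, so their promoters were not searched for any motif. The windows of Egr2, Nr4a1 and Srf are shown because Egr2 and Nr4a1 were among the members that were lower together and Srf encodes the factor that binds CArG boxes. Each is given 5′ to 3′ on the gene's own strand, ending at the base before the start; capitals mark CArG boxes and the CRE core (TGACG, or CGTCA on the other strand). Egr2 is read from the plus strand at chr10:67537619-67537868, Nr4a1 from the plus strand at chr15:101266596-101266845 and Srf from the minus strand at chr17:46556163-46556412.
Egr2: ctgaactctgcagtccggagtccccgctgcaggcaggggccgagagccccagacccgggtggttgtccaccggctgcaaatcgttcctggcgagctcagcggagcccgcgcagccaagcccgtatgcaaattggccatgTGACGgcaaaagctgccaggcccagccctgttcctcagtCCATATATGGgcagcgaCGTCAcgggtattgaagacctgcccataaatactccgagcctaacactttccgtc
Nr4a1: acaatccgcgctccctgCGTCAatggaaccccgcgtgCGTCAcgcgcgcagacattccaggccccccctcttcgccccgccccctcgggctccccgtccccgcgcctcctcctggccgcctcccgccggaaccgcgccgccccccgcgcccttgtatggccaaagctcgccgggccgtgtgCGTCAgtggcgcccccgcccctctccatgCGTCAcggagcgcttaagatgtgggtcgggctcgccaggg
Srf: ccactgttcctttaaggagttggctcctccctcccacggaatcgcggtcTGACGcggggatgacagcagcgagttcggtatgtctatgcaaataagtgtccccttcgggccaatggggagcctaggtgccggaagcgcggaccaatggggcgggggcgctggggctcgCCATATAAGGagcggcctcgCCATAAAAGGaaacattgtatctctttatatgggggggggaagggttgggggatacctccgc

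Of 32851 windows in the RefSeq table, 1.63% held a CArG box. The Egr2 window shown held a single match, 72 to 63 bases before the start. Another Egr2 window, with its start at 67537566, held a different CArG box, also 72 to 63 bases before its start. The Srf window held a pair, the nearer of them 62 to 53 bases before the start. At least 1 CRE core was found in 20.8% of all windows, and the share with 2 or 4 was not computed. The Nr4a1, Nr4a2 and Nr4a3 windows held 4 cores each, the Egr2 window shown and the Egr4 window 2 each, and the Srf and Nab1 windows 1 each. The full palindrome TGACGTCA, which contains a core on each strand, was in 1.79% of all windows and in none of the 12. The NGFI-B response element AAAGGTCA, a monomer site of NR4A proteins, was in 1.51% of all windows and in none of the 12. The EGR site GCGGGGGCG, searched like the others on both strands, was in 2.91% of windows, among them those of Srf, Nr4a1 and Nab1, and the form GCGTGGGCG was in 0.612%, among them that of Nab1 with 2 matches. In the Nab2 window no motif of this search was found. No CArG box overlapped a CRE core or an EGR site in these windows. A match is a run of letters and was not tested as a binding site.

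**Figure D1:**
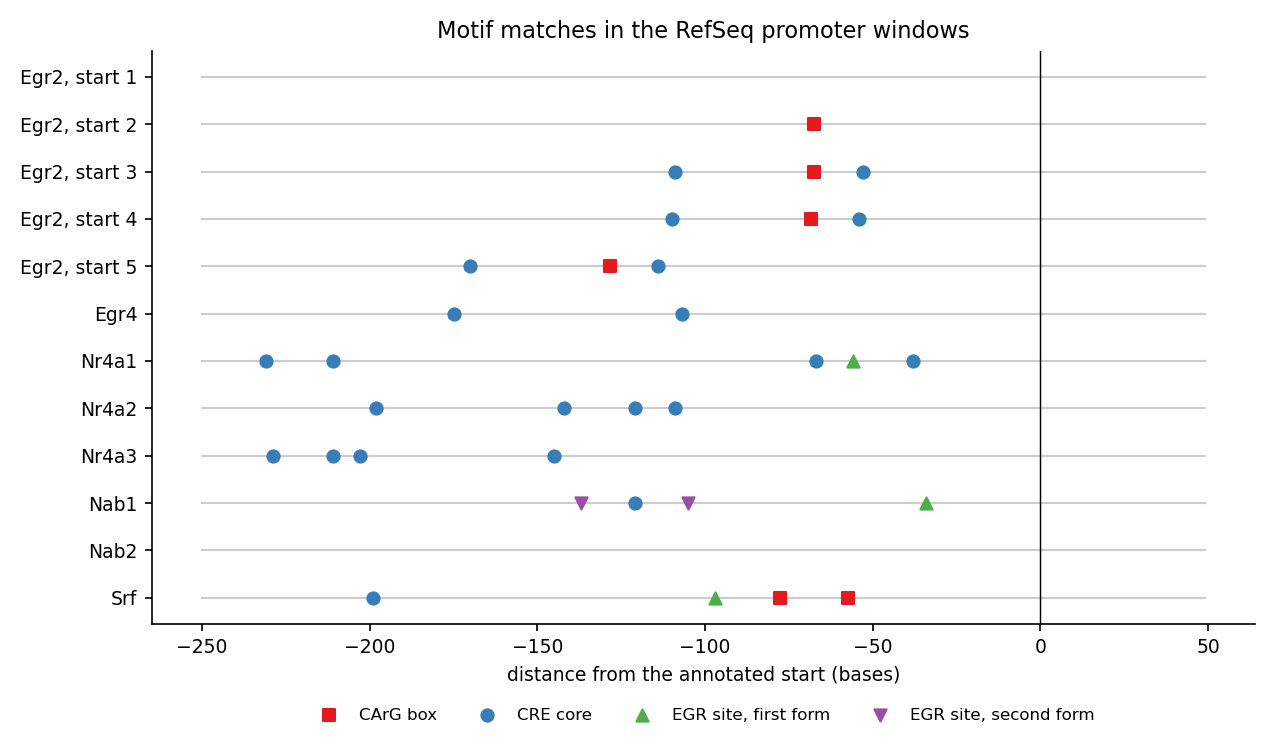
Matches to CArG boxes, CRE cores and the EGR sites GCGGGGGCG (first form) and GCGTGGGCG (second form) in 12 RefSeq promoter windows, plotted by distance in bases from the annotated start (0); each row is a window and Egr2 has 5 annotated starts. The sequences printed for Egr2 are those of start 3. Nr4a1, Nr4a2 and Nr4a3 have 4 CRE cores each, and of these 12 windows that of Srf has the only pair of CArG boxes. The CArG box at Egr2 start 2 lies at another position than that at start 3, so Egr2 too has more than 1 box across its windows. Egr1 and Egr3 had no window and were not searched.

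Egr1, the founding member of the EGR family, was the most abundant of the 10 genes. It had 131 RPKM with conditioned medium plus strain, 207 with conditioned medium, 236 with strain and 320 in the control, on 4017, 6773, 7782 and 10824 counts. It lies on chromosome 18. Its level was thus lowest with both treatments and highest in the control, and the counting intervals of the 4 libraries did not overlap. By RPKM it ranked 342 among all genes in the library with both treatments and 105 in the control. Egr1 was 2.45-fold lower with both treatments than in the control (2.36 to 2.54), 1.55-fold lower with conditioned medium (1.503 to 1.60) and 1.36-fold lower with strain (1.32 to 1.40).

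Egr2, best known for its part in myelination, stood in the same order. Its levels were 13.7 RPKM with conditioned medium plus strain, 18.3 with conditioned medium, 23.9 with strain and 30.03 in the control, on 1287, 1823, 2395 and 3093 counts. These 4 values also lay apart by more than their counting intervals. Against the control it was 2.19-fold lower with both treatments (2.05 to 2.34), 1.64-fold lower with conditioned medium (1.55 to 1.74) and 1.26-fold lower with strain (1.19 to 1.33). The deposited gene model of Egr2 is 9365 bases long and runs from 67534453 to 67547493 on chromosome 10, where RefSeq ends the gene at 67542188. It overlaps Ado on the opposite strand over 2983 bases, and Ado had 1329 counts with both treatments, 1430 with conditioned medium, 1515 with strain and 1551 in the control. The libraries were made with a strand-specific kit, but the strand setting of the counting is not given, so the share of Egr2 counts that came from Ado was not tested.

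Egr3, known from muscle spindle and lymphocyte development, had the lowest ratio to control in the set with both treatments and with conditioned medium. It had 2.36 RPKM with conditioned medium plus strain, 3.85 with conditioned medium, 7.49 with strain and 13.4 in the control, on 98, 170, 333 and 612 counts. Both libraries in conditioned medium were below both in ordinary medium. With both treatments Egr3 was 5.68-fold lower than in the control (4.58 to 7.11), with conditioned medium 3.49-fold lower (2.94 to 4.16) and with strain 1.79-fold lower (1.57 to 2.05). Of 12069 genes that reached 30 counts in either library, 4 had a lower ratio of conditioned medium to control. Egr4, a mainly neuronal member of the family, was not counted in any library (0 counts). The exact Poisson interval of a count of 0 reaches 3.69 counts. For its model of 2100 bases that is 0.160 RPKM in the control and 0.176 RPKM with both treatments.

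Nr4a1 encodes NUR77, which in osteoblasts is induced by parathyroid hormone. It lies at chr15:101254213-101274795 and had 7.20 RPKM with conditioned medium plus strain, 13.9 with conditioned medium, 15.2 with strain and 34.1 in the control, on 365, 750, 826 and 1903 counts. The libraries with a single treatment were close to each other, with overlapping counting intervals, between the library with both and the control. Nr4a1 was 4.74-fold lower with both treatments than in the control (4.24 to 5.32), 2.46-fold lower with conditioned medium (2.26 to 2.68) and 2.25-fold lower with strain (2.07 to 2.44). It was the only gene of the set at least 2-fold lower in each of the comparisons against control.

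Nr4a2, which encodes NURR1, was low throughout. It had 1.85 RPKM with conditioned medium plus strain, 2.68 with conditioned medium, 2.38 with strain and 2.75 in the control, on 125, 193, 172 and 204 counts. The combined library was lowest. Its counting interval (1.54 to 2.21 RPKM) overlapped that of strain (2.03 to 2.76 RPKM), and the intervals of the other libraries overlapped each other. The ratio of both treatments to strain was 0.779 (0.613 to 0.986), an interval that excluded 1 under scaling by library totals. TMM scaling moved its log2 from -0.361 to -0.339, so that exclusion depends on the scaling. With both treatments Nr4a2 was 1.49-fold lower than in the control (1.18 to 1.87), while the ratio was 0.976 for conditioned medium against control (0.798 to 1.19) and 0.865 for strain against control (0.702 to 1.06). The ratio for conditioned medium was above 1 by at most 0.01 on the log2 scale under TMM and median-of-ratios scaling.

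Nr4a3, which encodes NOR1, stood in pairs by medium. It had 0.570 RPKM with conditioned medium plus strain and 0.520 with conditioned medium, against 1.05 with strain and 1.04 in the control, on 36, 35, 71 and 72 counts. Both libraries in conditioned medium were below both in ordinary medium, and within each medium the strained and unstrained values were close. It was 1.99-fold lower with conditioned medium than in the control (1.31 to 3.08) and 1.84-fold lower with both treatments than with strain (1.22 to 2.83). The ratio of strain to control was 1.01 (0.718 to 1.42), so differences within that interval were not detectable at this depth.

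Summed over their members, the EGR genes had 147 RPKM with conditioned medium plus strain, 229 with conditioned medium, 268 with strain and 364 in the control. Egr1 made up 89.0%, 90.3%, 88.3% and 88.1% of those sums, so on that scale its share differed by little between libraries. The size of the share depends on the length used for Egr2: it was 74.0% to 77.3% of the summed counts, and 69.0% to 72.4% with the exon unions of GENCODE vM21 in place of the deposited lengths. The counts of the deposited gene models were kept in both. The NR4A genes summed to 9.62 RPKM with both treatments, 17.1 with conditioned medium, 18.6 with strain and 37.9 in the control. Here the share of Nr4a1 was 74.8% with both treatments, 81.3% with conditioned medium, 81.6% with strain and 90.0% in the control; with the GENCODE lengths it was 73.9%, 80.0%, 81.3% and 89.7%.

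The NAB corepressor genes differed from each other. Nab2 had 62.3 RPKM with conditioned medium plus strain, 59.9 with conditioned medium, 57.4 with strain and 50.6 in the control, on 1606, 1645, 1584 and 1434 counts. It was highest where Egr1 was lowest, but the counting intervals of the treated libraries overlapped each other. Both treatments had a Nab2 ratio of 1.04 to conditioned medium (0.970 to 1.11) and 1.09 to strain (1.01 to 1.17). Nab2 was 1.23 times the control with both treatments (1.15 to 1.32), 1.18 times with conditioned medium (1.10 to 1.27) and 1.13 times with strain (1.05 to 1.22). The RPKM of Egr1 was 2.10 times that of Nab2 with both treatments, 3.45 times with conditioned medium, 4.12 times with strain and 6.33 times in the control; with GENCODE lengths these were 1.64, 2.70, 3.22 and 4.95 times. Nab1 had 13.4 RPKM with both treatments, 15.6 with conditioned medium, 12.8 with strain and 14.2 in the control, on 685, 845, 698 and 796 counts. Its ratio to control was 0.946 with both treatments (0.853 to 1.05), 1.10 with conditioned medium (0.993 to 1.21) and 0.899 with strain (0.811 to 0.997). It was lower in the strained than in the unstrained library within each medium, the direction in which Egr1, Egr2 and Egr3 also lay. Both intervals excluded 1 under scaling by library totals. For strain against control the upper limit was near 1, and TMM scaling moved the log2 ratio from -0.153 to -0.105, so that exclusion depends on the scaling. The Nab2 gene model shares 70 bases with Stat6 on the opposite strand.

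Srf, which encodes the serum response factor, had 20.2 RPKM with conditioned medium plus strain and 20.9 with conditioned medium, against 24.05 with strain and 24.9 in the control, on 1043, 1150, 1333 and 1418 counts. The values paired by medium. Srf was 1.24-fold lower with both treatments than in the control (1.14 to 1.34) and 1.20-fold lower with conditioned medium (1.10 to 1.29), and its ratio of strain to control was 0.964 (0.894 to 1.04).

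**Figure D2:**
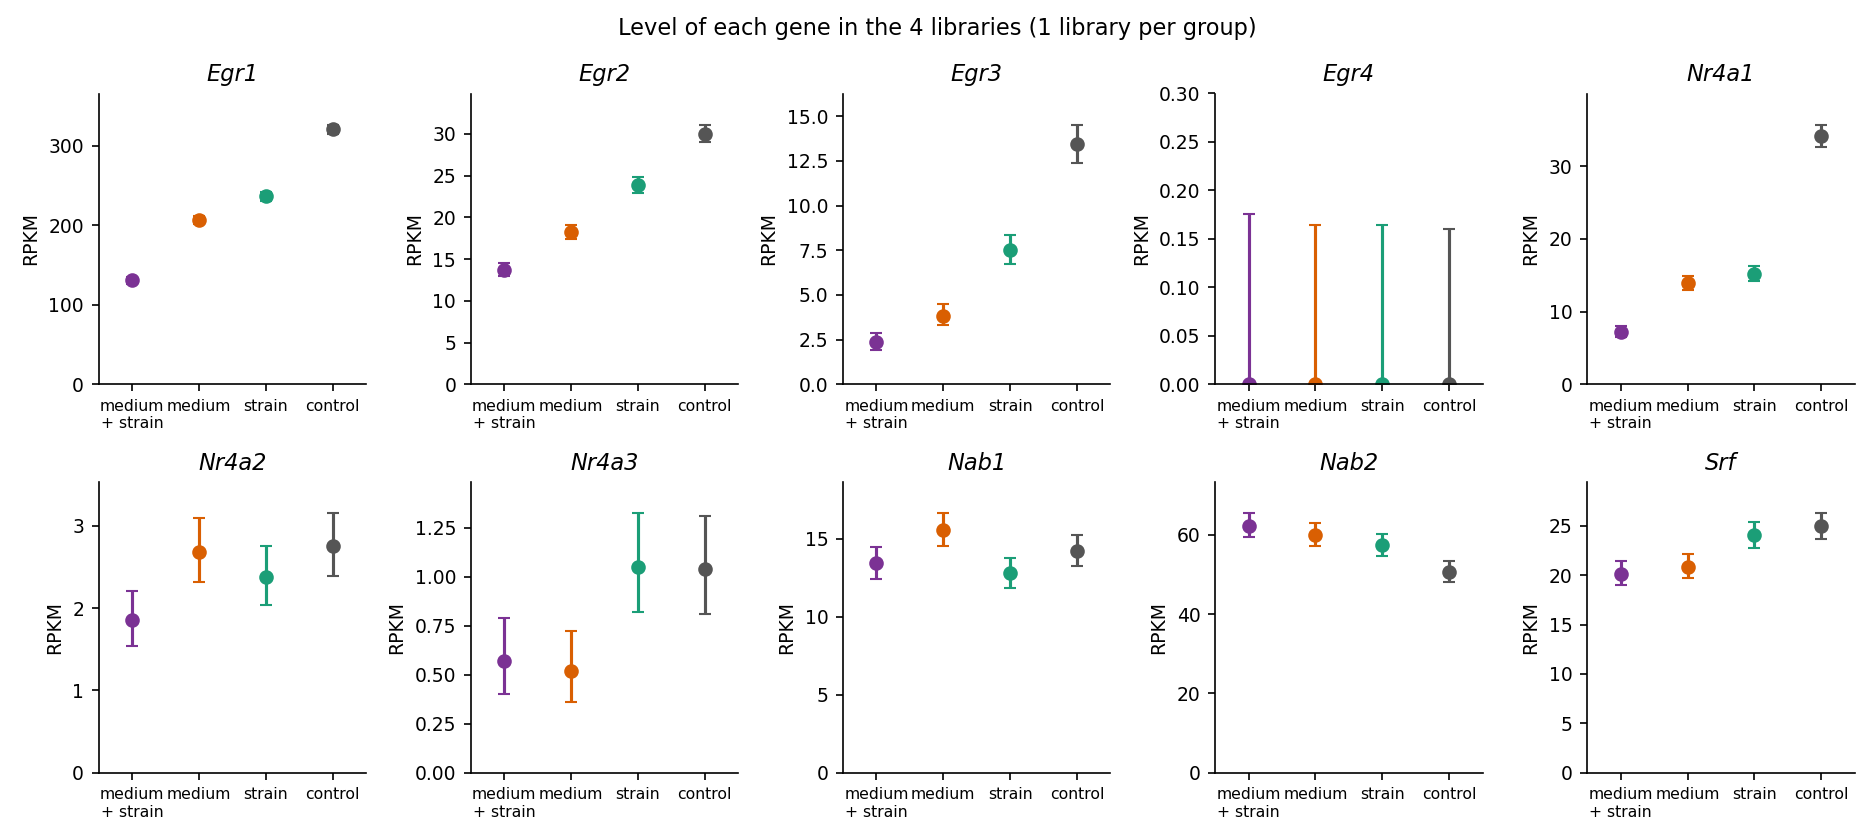
RPKM (y axis, from 0, a scale of its own in each panel) of the 10 genes in the libraries with conditioned medium plus strain, conditioned medium, strain and the control (x axis); points are single libraries and bars are exact Poisson 95% intervals of the count. Egr1, Egr2, Egr3 and Nr4a1 are lowest with both treatments and highest in the control, and Egr4 is at 0 throughout. Nab2 is lowest in the control and highest with both treatments, with overlapping intervals among the treated libraries.

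The comparison of both treatments with the control does not depend on how the single-treatment columns are read. Of the 9 genes with counts, 8 were lower, against 63.9% of all genes, and Nab2 was higher. For Nab1, among the lower, the counting interval of the ratio included 1 (0.853 to 1.05). The median log2 ratio of the 9 was -0.86 where the median over all genes was -0.07. A ratio of at least 2 downward was reached by Egr1, Egr2, Egr3 and Nr4a1, 4 of the 9, against 1.11% of the 12025 genes that reached 30 counts in either library. Among those genes Egr3 had the 4th lowest ratio, Nr4a1 the 7th, Egr1 the 51st and Egr2 the 77th. None of the 9 was at least 2-fold higher, against 1.16% of all genes. At a ratio of 1.5 Nr4a3 was also lower, 5 of the 9, against 4.84%. By the same rule 134 genes were lower and 139 higher; under TMM scaling 102 were lower and 160 higher, Egr1, Egr2, Egr3 and Nr4a1 again among the lower.

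**Figure D3:**
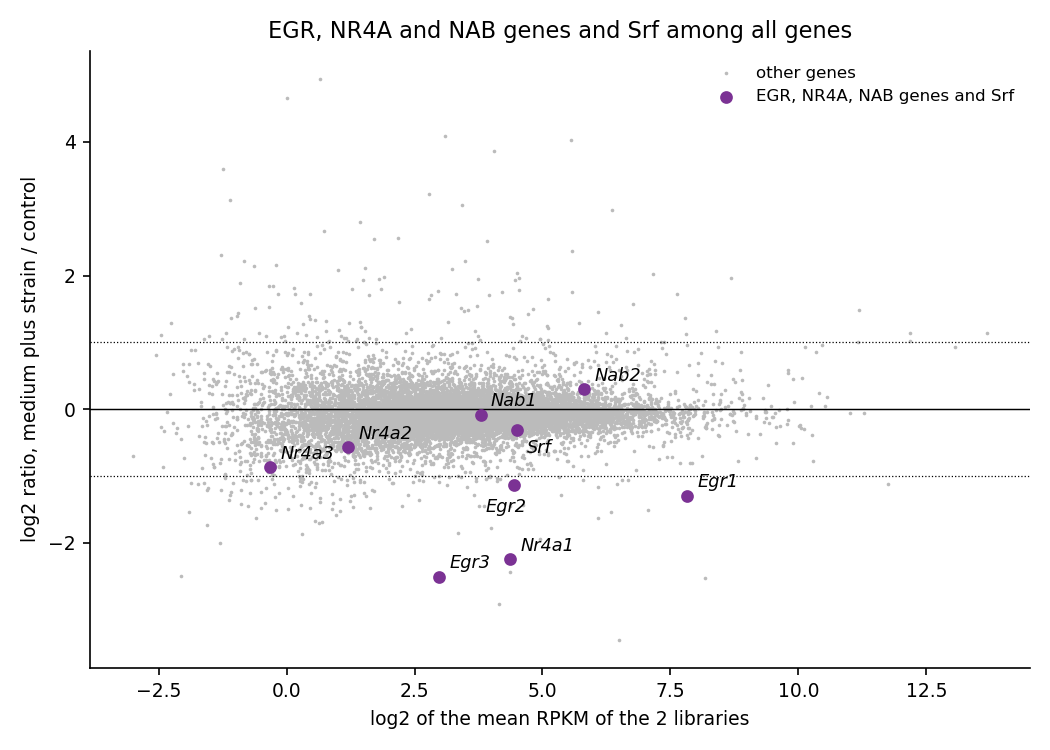
Log2 ratio of count shares of conditioned medium plus strain to control (y axis) against the log2 of the mean RPKM of these 2 libraries (x axis) for 12025 genes that reached 30 counts in either library; dotted lines mark 2-fold. Egr3, Nr4a1, Egr1 and Egr2 lie below the lower line, and Nab1, Nab2, Srf, Nr4a2 and Nr4a3 between the lines.

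The effect of the cancer cells' medium on unstrained cells was read from conditioned medium against control. Egr3 and Nr4a1, 2 of the 9, were at least 2-fold lower, against 0.812% of 12069 genes, and Nr4a3 missed that limit at 1.99-fold. None was 2-fold higher, against 1.31%. At a ratio of 1.5 Egr1, Egr2 and Nr4a3 joined them, 5 of the 9, against 4.13%. The median log2 ratio was -0.63, where that over all genes was -0.04. Strain in ordinary medium was read against the same control. Nr4a1 alone of the 9 was at least 2-fold lower, against 0.341% of 12025 genes, and Nr4a1 and Egr3 at least 1.5-fold lower, 2 of the 9, against 2.04%. None was 2-fold higher, against 0.324%. The members had a median log2 ratio of -0.21 where that over all genes was -0.03. Both comparisons, and that of both treatments with control, share the control library.

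For strained cells, the medium was compared between the library with both treatments and that with strain. Egr3 was 3.17-fold lower (2.52 to 4.01) and Nr4a1 2.11-fold lower (1.87 to 2.40), 2 of the 9, against 0.955% of 11940 genes. No member was 2-fold higher, against 0.905%. Egr1 was 1.81-fold lower (1.74 to 1.88), Egr2 1.74-fold lower (1.62 to 1.86) and Srf 1.19-fold lower (1.10 to 1.29). With Egr1, Egr2 and Nr4a3, 5 of the 9 were at least 1.5-fold lower, against 4.31% of all genes. On the log2(RPKM + 1) scale Egr3 alone was past 2-fold, since the added 1 draws the ratio of Nr4a1 toward 1.

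Within conditioned medium, the strained library was set against the unstrained. None of the 9 was at least 2-fold lower, against 0.26% of 11910 genes, or 2-fold higher, against 0.118%. At a ratio of 1.5 the count was 3 of the 9, Nr4a1, Egr3 and Egr1, against 1.23%. Nr4a1 was 1.93-fold lower (1.70 to 2.19), Egr3 1.63-fold lower (1.26 to 2.11), Egr1 1.58-fold lower (1.52 to 1.65), Nr4a2 1.45-fold lower (1.15 to 1.83) and Egr2 1.33-fold lower (1.24 to 1.43). The intervals for Nr4a3 (0.669 to 1.80), Nab2 (0.970 to 1.11) and Srf (0.887 to 1.05), as ratios, included 1. Nab1 had a ratio of 0.863 (0.780 to 0.956), lower in the strained library.

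**Figure D4:**
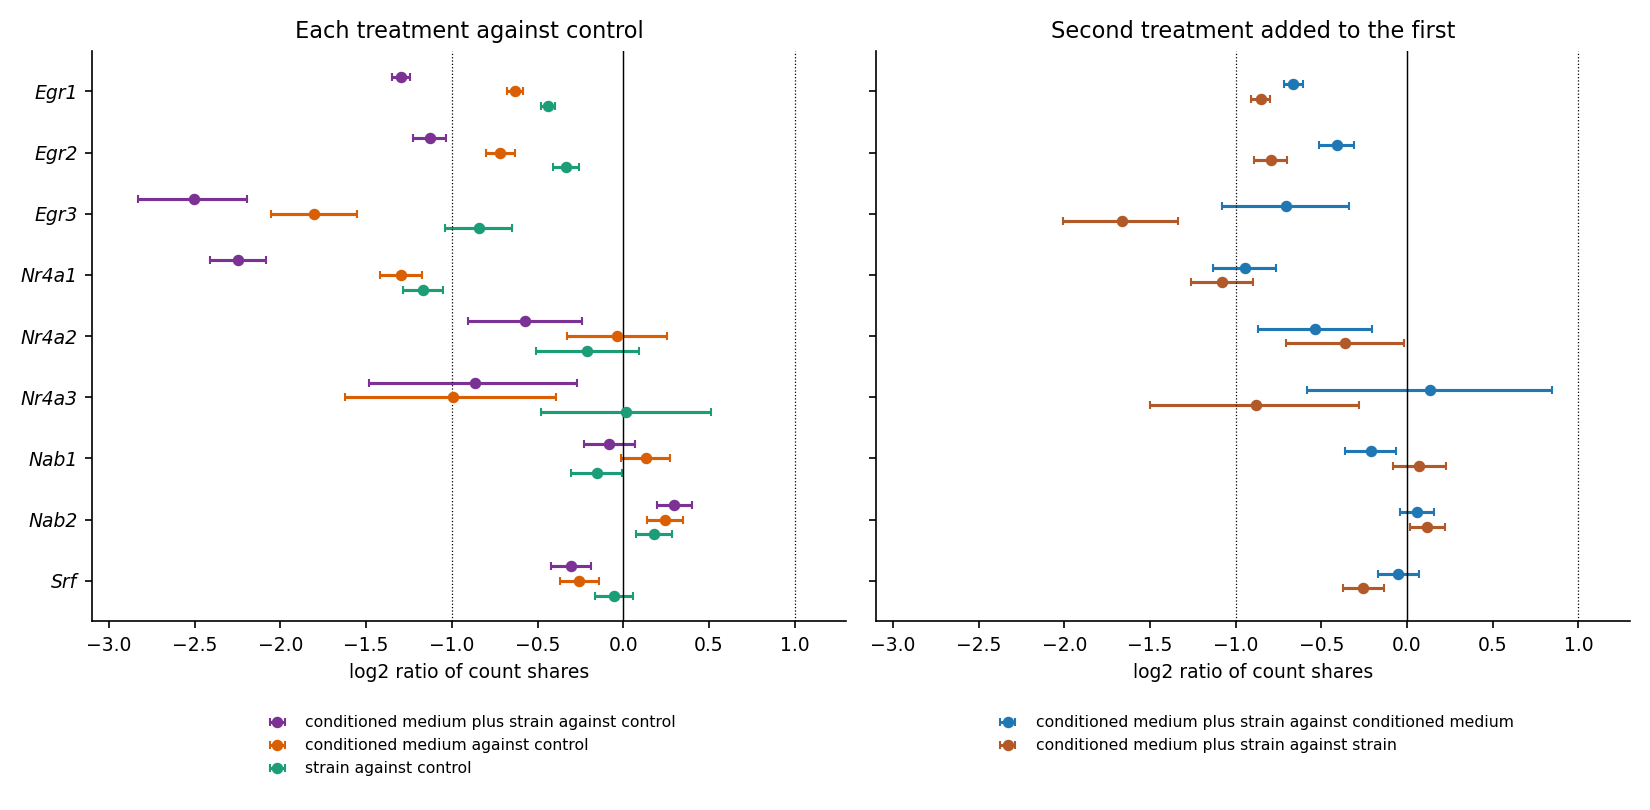
Log2 ratios of count shares (x axis) for the 9 genes with counts (rows), each treatment against control on the left and the combined library against each single treatment on the right; bars are 95% counting intervals and dotted lines mark 2-fold. Nr4a1 lies past 2-fold in all 3 ratios on the left, and Egr3 in those with conditioned medium.

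To set the combined library beside the single treatments, its RPKM was compared with the product of the single effects, the level that would follow if each treatment multiplied the control by its own ratio. For Egr2 the observed level was 13.7 RPKM and the product 14.5, for Egr3 2.36 and 2.15, and for Srf 20.2 and 20.1. For these genes the counting interval of the log2 departure included 0, with values of -0.08 (-0.21 to 0.05), 0.14 (-0.27 to 0.54) and 0.0028 (-0.16 to 0.16). Egr1 was below the product, at 131 against 153 RPKM, a log2 departure of -0.22 (-0.29 to -0.15). Nr4a1 was above its product, at 7.20 against 6.18 RPKM, a departure of 0.22 (0.0040 to 0.44). The Nr4a1 departure was 0.196 under TMM and 0.214 under median-of-ratios scaling, shifts larger than the distance of its lower limit from 0. Whether its counting interval excludes 0 therefore depends on the scaling. Nr4a2 had the largest departure in size, -0.33, with an interval that included 0 (-0.76 to 0.11). The intervals of Nr4a3 at 0.12 (-0.71 to 0.94), Nab1 at -0.06 (-0.27 to 0.15) and Nab2 at -0.12 (-0.27 to 0.02) also included 0. Over all 12177 genes with a departure, many of them with far fewer counts than Egr1, the central 95% ran from -0.68 to 0.66. Without replicates the error of these departures beyond counting is unknown.

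**Figure D5:**
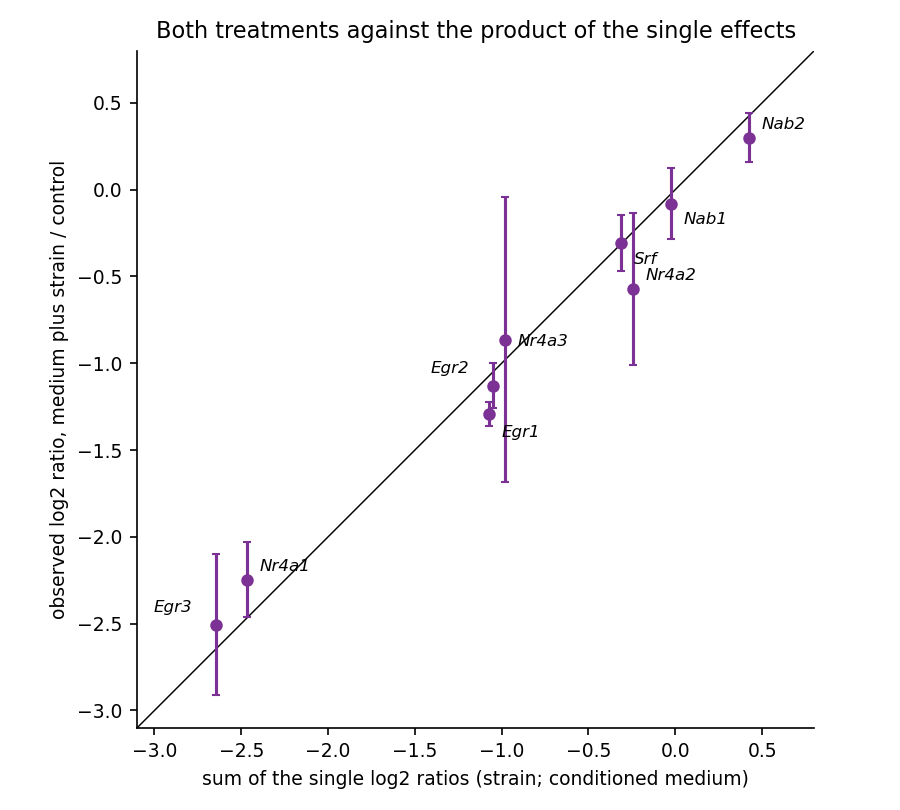
Observed log2 ratio of conditioned medium plus strain to control (y axis) against the sum of the log2 ratios of the single treatments (x axis) for 9 genes; the line marks equality and bars are 95% counting intervals of the departure from it. Egr1 lies below the line by 0.22, and Nr4a1 above it by 0.22.

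Genes of the pathways that lead to these families were listed with earlier results known. Of 7 SRF cofactor genes with at least 30 counts, none was 2-fold different in any of the 5 comparisons. Of all genes, 0.26% to 1.11% were 2-fold lower and 0.118% to 1.31% higher by comparison, so 0 of 7 is near that share. The ETS-family cofactor genes Elk1, Elk3 and Elk4 had 7.07, 39.8 and 6.85 RPKM with both treatments and 7.07, 33.7 and 7.17 in the control. Mkl1 and Mkl2, which encode actin-regulated coactivators of SRF, had 14.7 and 4.12 RPKM with both treatments and 17.3 and 4.26 in the control. Scai, a suppressor of those coactivators, had 7.32 RPKM with both treatments and 9.82 in the control. Myocd (myocardin) had at most 1 count.

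Among 13 genes from RAS to the ERK kinases and their RSK targets, log2 ratios of both treatments to control ran from -0.28 for Nras to 0.27 for Braf, with a median of -0.13. In the cAMP and CREB list of 12 genes none was 2-fold different in any comparison. That too is near the share over all genes, 0.26% to 1.11% lower and 0.118% to 1.31% higher by comparison. Sik1, itself a CREB target, had 9.11 RPKM with both treatments, 10.9 with conditioned medium, 10.8 with strain and 16.0 in the control, and was the lowest of that list in ratio of both to control at 1.76-fold lower (1.56 to 1.98). Pde4b, a cAMP-degrading enzyme gene, had 0.771, 0.924, 0.434 and 0.484 RPKM in that order of libraries, and Creb1 9.55, 9.66, 10.1 and 10.8. Rxra and Rxrb, whose products pair with NUR77 and NURR1, had 28.5 and 16.6 RPKM with both treatments and 28.2 and 13.7 in the control, and Rxrg had 0 counts. Sp1, whose protein binds GC-rich sites near those of EGR proteins, had 17.8 RPKM with both treatments and 23.2 in the control; Chd4, a remodeller bound by NAB2, had 76.9 and 81.1 RPKM in these libraries, and Wt1 had at most 1 count.

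Of 22 other immediate early genes 17 were lower with both treatments than in the control (77.3%, against 63.9% of all genes), and 8 were at least 2-fold lower, against the 1.11% of all genes. Their median log2 ratio was -0.71, against -0.07 over all genes. Fosb, of the AP-1 family, had 15.0 RPKM with both treatments and 164 in the control, and Fos 84.9 and 490 RPKM. Klf2 had 6.44 RPKM with both treatments and 35.0 in the control, and Zfp36, an mRNA-decay factor gene, 41.3 and 121 RPKM. In the other comparisons the genes of that list at least 2-fold lower were 1 of 22 for conditioned medium against control (0.812% of all genes), 4 of 22 for strain against control (0.341%), 4 of 22 for both treatments against conditioned medium (0.26%) and 2 of 21 for both treatments against strain (0.955%). None of the list was 2-fold higher, against 0.118% to 1.31% of all genes by comparison. Not all genes of that list were lower with both treatments than in the control: Ier3 and Maff had 155 and 6.20 RPKM with both treatments and 109 and 4.24 in the control. Of 15 actin and contractile genes that SRF and its actin-regulated coactivators are known to drive, 12 were lower with both treatments than in the control (80.0%, against 63.9% of all genes). Fhl1 alone was past 2-fold, 1 of the 15, on 13 against 30 counts, against 1.11% of all genes, and the median log2 ratio of the list was -0.28, against -0.07 over all genes. Acta2 (smooth muscle actin) had 623 RPKM with both treatments and 883 in the control, a ratio of 0.705 (0.692 to 0.718), Tpm1 133 and 194 RPKM, and Tagln 22.2 and 32.7 RPKM.

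Likeness of pattern was measured as the Euclidean distance between the 3 log2 ratios to control, over the 4 libraries and 10237 genes with 100 counts or more in the highest library and no count of 0. The 10 genes described here were left out as neighbours, so likeness among them is not listed. Nearest to Egr1 was Btg2, an antiproliferative gene, at a distance of 0.10, followed by Ttc30b, Enpp2, Prss12 and Klf4 at up to 0.28. Btg2 had 23.9 RPKM with both treatments, 38.6 with conditioned medium, 45.5 with strain and 57.9 in the control. Egr2 lay nearest to Axin2, a target of Wnt signalling, at 0.12, and then to Prss12, Kif5c, Sobp and Btg2. For Nr4a1 the nearest gene was Fos at 0.49, then Klf2 at 0.64, Ecm2, Hes1 and S100b. Egr3 had no close neighbour outside the set: the nearest was S100b at 0.62, and Prlr, Fos, Hes1 and Ifit1 followed at 0.82 to 1.10. With 4 libraries such distances describe the values and carry no measure of chance.

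Levels between genes rest on the deposited gene lengths. With the exon union of GENCODE vM21 in their place, a setting added after seeing the data, Egr2 in the control was at 82.8 in place of 30.03 RPKM, since its union is 3398 bases long. The counts stayed those of the deposited gene models, so any Egr2 reads from outside the union remain in that value. Nr4a1 was at 49.3 in place of 34.1, Nab2 at 44.3 in place of 50.6, Srf at 44.6 in place of 24.9, and Egr1, still the highest, at 220 in place of 320. The order of Egr2, Nab2, Nr4a1 and Srf in the control therefore changed with the length used, while the ratios between libraries do not use the length.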

How the data were processed

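The series holds 4 RNA-seq libraries, 1 per group. Per the file headers, the table the authors deposited gives a read count (whole numbers) and RPKM per gene and library, for 41288 genes. Reads were aligned with HISAT2 (version not given), per the submitters' processing notes, which name the build mm9; of 40033 genes matched by Entrez number, 28748 (71.8%) had the chromosome and start of the GRCm38.p6 RefSeq table, so positions are given as GRCm38. Which counter, strand setting and annotation were used is not given in the sources used here. The deposited RPKM equalled the count over gene length and library total within a relative 5.05e-06.

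Here each gene's count was divided by its library total. Ratios of these shares carry a 95% interval from the exact Clopper-Pearson interval of one count out of both (scipy 1.17.1), and levels an exact Poisson interval. Both cover counting error only. Since PCR copies of a molecule are not independent, the intervals may be too narrow even for that. The interval of a departure from the product of the single effects comes from the Poisson variance of the 4 counts. A gene counted as 2-fold different had a ratio of at least 2 either way, with 30 or more counts in 1 of the libraries compared; a count of 0 was set to 3. With 1 library per group no test was run and no p-value given. Ratio and interval code was tested on simulated counts.

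All 10 members are named. Of other lists at most 4 genes each are named, by the ratio of both treatments to control, and the SRF cofactors, NR4A partners and EGR-site genes more freely; Creb1, Ier3 and Maff were chosen after their values were seen. The 5 genes outside the set that were nearest in pattern are named for Egr1, Egr2, Egr3 and Nr4a1. The members and lists were chosen with earlier results of these data known. Alternatives were edgeR 4.0.16 TMM, DESeq2 1.42.0 median-of-ratios and upper-quartile scaling, log2(RPKM + 1) and log2(RPKM + 0.1), other count minimums, a ratio of 1.5 and, added after seeing the data, GENCODE vM21 lengths and a requirement that the counting interval exclude 1.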

Additional observations from a re-analysis of the deposited data

How the results depend on the processing

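The count of members at least 2-fold lower with both treatments than in the control was 4 under every scaling, pseudocount and count minimum tried, and 5 with a ratio of 1.5 in place of 2. With that ratio it was 5 in place of 2 for conditioned medium against control (4.13% of all genes), 2 in place of 1 for strain against control (2.04%), 3 in place of 0 for both treatments against conditioned medium (1.23%) and 5 in place of 2 for both treatments against strain (4.31%). On the log2(RPKM + 1) scale the last was 1, without Nr4a1. Over all genes, those at least 2-fold lower with both treatments than in the control numbered 134, against 312 on the log2(RPKM + 0.1) scale, 66 with a minimum of 100 counts, 2662 with no minimum and 582 at a ratio of 1.5. Of 225 alternative log2 ratios of single members, 3 had the other sign: Nr4a2 for conditioned medium against control under TMM (0.01) and median-of-ratios scaling (0.00), and Nr4a3 for strain against control under upper-quartile scaling (-0.01). Each departure from the product of the single effects stayed within its counting interval. No paired analysis was possible because each group has 1 library, and for the same reason no replicate was left out. Depth limits Nr4a3, with 35 to 72 counts, and Egr4, with 0.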
